A study of Mus musculus with 2 samples.

Results

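The Kruppel-like factors (Klf), the Sp factors, the early growth response factors (Egr) and Wt1 are zinc-finger transcription factors, and their RNA was measured in the whole uterus of 2 pregnant mice. The members were taken by gene symbol, which gave 31 of the 22740 genes in the main table: 17 Klf genes, 9 Sp genes, 4 Egr genes and Wt1. Both animals were C57BL/6 mice on day 4 of pregnancy, the labels call both samples WT, no treatment or other allele is named, and ages are not given. Each animal gave 1 sequencing library (uterus 1 and uterus 2, numbered as titled), the values therefore describe levels in this tissue and the difference between 2 animals of 1 group. Values are RPKM, read counts divided by transcript length and by library depth, so levels of different genes can be set side by side.

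Proteins of these families carry a run of zinc fingers near the C-terminal end that reads GC-rich DNA, such as the GC box and the CACCC box, and they differ mainly in the rest of the protein, which recruits activators or repressors. Some Klf proteins bind the corepressor CtBP, others the corepressor Sin3a, and a further group mostly activates transcription. Egr genes are switched on within minutes of a growth factor or cytokine signal through serum response factor, which binds CArG boxes. In the mouse uterus, Klf9 is known as a partner of the progesterone receptor, Klf5 is known to be required in the epithelium for implantation, Klf15 is known to restrain oestrogen-driven epithelial proliferation, and Wt1 marks the stroma.

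Of the 31 members, 21 were detected, which means at least 1 RPKM in both uteri, against 58.4% of all genes. The detected members were the same 21 in each uterus. At 10 RPKM or more in both were 11, against 30.4% of all genes, and 4 were listed at 0 in both, against 23.4%. The median of the members' mean levels was 4.57 RPKM, beside 3.23 RPKM over all genes. As a description, 16 of 44 forkhead genes and 20 of 39 Hox genes were detected in the same libraries, with median levels of 0.425 and 1.59 RPKM. In a whole organ, fewer cells of a type and less RNA per cell cannot be told apart.

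The 2 libraries held 3750863 and 4169542 reads over the main table, recovered from the steps in the RPKM values. Markers of epithelium, stroma, smooth muscle and endothelium were detected without exception (6 of 6 in each list), as the labelled tissue has them, and 5 of 6 leukocyte markers were. Of 5 ovary and oviduct markers 3 were detected, with summed levels of 11.3 RPKM in uterus 1 and 16.6 RPKM in uterus 2. Summed marker levels were 370 and 396 RPKM for epithelium, 4162 and 4071 RPKM for stroma, and 2025 and 2017 RPKM for smooth muscle. Of these 24 markers 7 differed between the libraries by the exact test described with the differences, where it called 4.51% of all genes tested. Krt18, Vim, Dcn and Myh11 were higher in uterus 2, and Acta2, Kdr and Col1a1 were lower. The stromal sum was lower in uterus 2 through Col1a1 (1184 and 851 RPKM), while the median of the 6 stromal markers went the other way (452 and 550 RPKM). Their part in the members' values was not tested.

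The upstream sequences of 5 genes show the range of promoter types that the levels fall on. They are the 250 bases before the deposited start of Klf9 and Sp3 (the highest members), of the neighbouring genes Sp4 (detected) and Sp8 (listed at 0), and of Egr2 (a low immediate early gene). Each was read 5′ to 3′ on the gene's strand from mouse build NCBIM37 and holds no exon annotated in GENCODE M1. Capitals mark the GC box GGGCGG, the CACCC box CCACCC and the CArG box, on either strand.
Klf9, chr19:23215466-23215715, plus strand: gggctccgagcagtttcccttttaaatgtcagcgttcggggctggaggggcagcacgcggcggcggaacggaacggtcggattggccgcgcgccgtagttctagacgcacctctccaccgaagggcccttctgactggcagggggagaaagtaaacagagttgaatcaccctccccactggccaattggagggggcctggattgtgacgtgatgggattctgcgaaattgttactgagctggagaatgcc
Sp3, chr2:72818504-72818753, minus strand: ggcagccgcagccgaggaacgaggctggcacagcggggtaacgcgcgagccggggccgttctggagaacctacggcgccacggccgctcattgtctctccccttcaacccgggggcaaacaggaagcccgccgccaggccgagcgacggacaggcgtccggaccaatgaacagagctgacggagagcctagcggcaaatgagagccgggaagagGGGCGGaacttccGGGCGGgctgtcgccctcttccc
Sp4, chr12:119539914-119540163, minus strand: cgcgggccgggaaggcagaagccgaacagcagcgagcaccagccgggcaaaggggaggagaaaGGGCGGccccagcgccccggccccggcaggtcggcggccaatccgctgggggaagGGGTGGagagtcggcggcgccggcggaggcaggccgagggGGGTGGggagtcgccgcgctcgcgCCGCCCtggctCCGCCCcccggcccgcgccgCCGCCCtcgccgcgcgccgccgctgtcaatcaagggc
Sp8, chr12:120084552-120084801, plus strand: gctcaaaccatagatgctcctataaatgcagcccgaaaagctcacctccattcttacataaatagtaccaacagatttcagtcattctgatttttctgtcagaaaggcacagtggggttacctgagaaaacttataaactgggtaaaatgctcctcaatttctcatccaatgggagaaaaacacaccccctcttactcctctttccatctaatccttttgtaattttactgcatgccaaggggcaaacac
Egr2, chr10:67000367-67000616, plus strand: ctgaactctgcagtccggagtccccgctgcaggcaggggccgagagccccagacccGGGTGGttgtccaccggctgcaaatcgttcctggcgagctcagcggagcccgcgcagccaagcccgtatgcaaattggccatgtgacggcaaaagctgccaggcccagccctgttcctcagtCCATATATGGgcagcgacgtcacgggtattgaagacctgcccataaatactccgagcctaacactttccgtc
These letters were 59.6% G or C for Klf9, 69.2% for Sp3, 80.0% for Sp4, 40.8% for Sp8 and 61.6% for Egr2. Sp4 and Sp3 hold GC boxes here, Klf9 and Sp8 hold none of the boxes, and the CArG box of Egr2 ends 63 bases before the start.

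**Figure D1:**
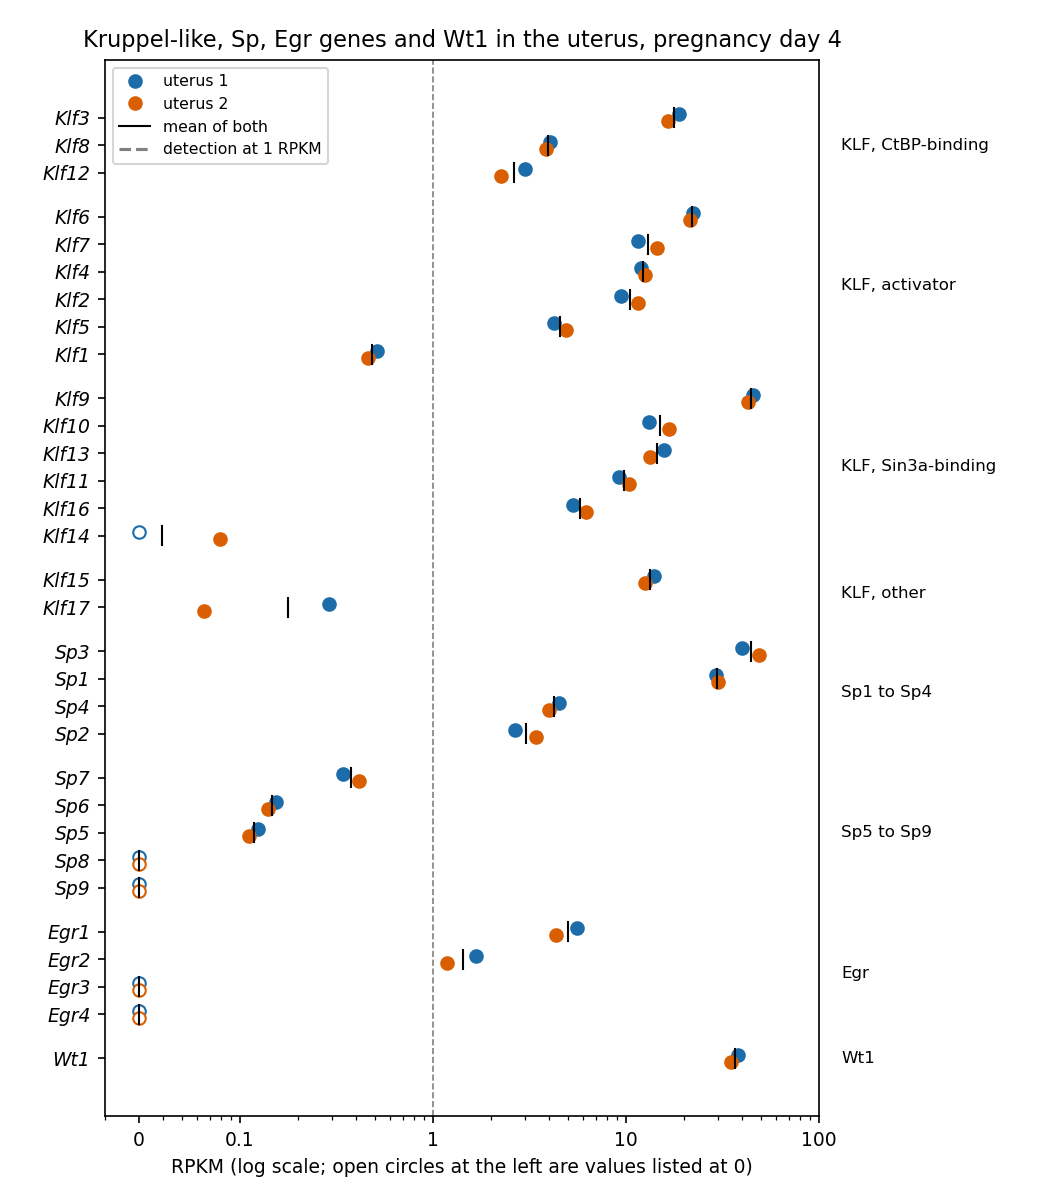
RPKM of each of the 31 members (log scale) in uterus 1 (blue) and uterus 2 (orange), with the mean as a black bar, grouped by family; open circles are values listed at 0 and the dashed line is 1 RPKM. The 21 detected members lie right of the line in both uteri, and all of Sp5 to Sp9 lie left of it.

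The members' summed RPKM was spread unevenly. Sp3, Klf9, Wt1 and Sp1 made up 49.1% of the members' summed RPKM in uterus 1 and 49.3% in uterus 2. The Klf genes as a whole held 60.7% and 60.0%, the Sp genes 24.7% and 27.3%, and the Egr genes 2.33% and 1.75%. The summed level of all members was 312 and 317 RPKM.

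Among the Klf genes whose proteins bind Sin3a, Klf9 was highest. Klf9 (NM_010638, chromosome 19, 23215716 to 23241401, plus strand) was at 45.6 RPKM in the first uterus and 42.9 in the second, a mean of 44.2 ± 1.87 RPKM (SD, n = 2) on 570 and 596 reads. Its level was above that of 93.8% of all genes. Klf13, the closest relative of Klf9, lay at 15.8 and 13.3 RPKM, a mean of 14.5 ± 1.76 RPKM. Klf10, a gene induced by TGF-beta, lay at 13.2 and 16.7 RPKM, a mean of 15.0 ± 2.51 RPKM. The 2 uteri therefore put Klf10 and Klf13 in opposite order, and their ranges overlapped. Klf11, a close relative of Klf10, followed at 9.24 and 10.4 RPKM. Klf16, which has been described as a regulator of dopamine receptor genes, lay at 5.31 and 6.20 RPKM. Klf14, an imprinted gene with a single exon, was listed at 0 in uterus 1 and had 1 read in uterus 2 (0.0791 RPKM). A count of 0 in uterus 1 allows a level of up to 0.263 RPKM for Klf14. This class of 6 genes held 28.6% and 28.2% of the members' summed RPKM.

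Of the 6 activator-type Klf genes, 5 were detected. Klf6, a widely expressed gene that is induced on injury, was at 22.3 RPKM in the first uterus and 21.6 in the second, a mean of 21.9 ± 0.541 RPKM (SD, n = 2). Klf7, known from neurons, lay at 11.5 and 14.4 RPKM, and Klf4, known from differentiating epithelium, at 12 and 12.6 RPKM. These 2 genes could not be ordered, since their ranges overlapped. Klf2, known from endothelium under blood flow, lay at 9.48 and 11.5 RPKM on 66 and 89 reads. The 6 endothelial markers summed to 193 and 186 RPKM, none of them was at 0, and 1 of them was called (Kdr, at 22.9 and 16.6 RPKM). Their part in the Klf2 values was not tested. Klf5, the epithelial factor, was lower at 4.23 and 4.90 RPKM on 28 and 36 reads, where the 6 epithelial markers had means from 25.6 RPKM (Cdh1) to 121 RPKM (Cldn3). Klf1, the erythroid factor that drives beta-globin, was not detected, with 3 reads in each uterus (0.510 and 0.459 RPKM). Of 7 red blood cell markers only Alas2 was detected, at 6.85 and 6.53 RPKM. Hba-a1 and Hbb-b1 of that list were listed at 0 in both uteri. The counter is not given in the sources used here, so these zeros cannot be read as a lack of red blood cells.

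All 3 Klf genes of the CtBP-binding class were detected, and they spanned a wide range. Klf3, a repressor known from blood and fat cells, lay at 18.8 and 16.6 RPKM, a mean of 17.7 ± 1.61 RPKM (SD, n = 2). Klf8, known from the epithelial-mesenchymal transition, lay at 4.04 and 3.85 RPKM and Klf12, known as a repressor of the AP-2alpha gene, at 3.0 and 2.25 RPKM. Klf3 was above both in either uterus, and all 3 values were lower in uterus 2 by less than their counting error. Klf15, which belongs to none of these classes and is known as a glucocorticoid-responsive regulator of metabolism, lay at 14.0 and 12.5 RPKM, a mean of 13.2 ± 1.05 RPKM on 123 and 122 reads. Klf17, known from germ cells, was not detected, with 4 reads and 1 read (0.290 and 0.0654 RPKM).

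Of the 9 Sp genes, 4 were detected. Sp3 (NM_001018042, chromosome 2, 72774490 to 72818503, minus strand), a widely expressed factor that can activate or repress, was at 39.9 RPKM in the first uterus and 48.7 in the second, the highest mean of the members at 44.3 ± 6.21 RPKM (SD, n = 2). Sp1 (NM_013672, chromosome 15, 102236747 to 102266835, plus strand), its closely related activator, lay at 29.3 and 29.8 RPKM, a mean of 29.5 ± 0.393 RPKM. Sp3 was above Sp1 in both uteri. Sp4, known from neurons, lay at 4.52 and 3.99 RPKM, and Sp2, a more distant relative, at 2.66 and 3.41 RPKM. Sp1 to Sp4 were therefore all detected, with Sp2 and Sp4 below the median member (4.57 RPKM) in their means.

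None of Sp5 to Sp9 reached 1 RPKM. Sp7, also called osterix and known from bone, held 3 and 4 reads (0.343 and 0.411 RPKM). Sp6, known from teeth and skin, held 2 reads in each uterus (0.155 and 0.139 RPKM), and Sp5, a WNT target gene, 1 read in each (0.124 and 0.112 RPKM). All 3 rest on so few reads that their order cannot be read. Sp8 and Sp9, known from limb and forebrain, were listed at 0, which at their annotated lengths allows up to 0.175 and 0.173 RPKM in uterus 1.

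Each detected Sp gene has an undetected one beside it on the chromosome. Sp1 and Sp7 on chromosome 15 are 40.0 kb apart and Sp2 and Sp6 on chromosome 11 are 35.9 kb apart, and both pairs have no other row of the deposited table between them. Sp3 and Sp9 on chromosome 2 are 291 kb apart with 1 row (Ola1) between, and Sp4 and Sp8 on chromosome 12 are 545 kb apart with 1 row (D230030E09Rik) between. In every pair the genes lie on opposite strands. Detected genes lie above undetected ones through the threshold itself, so their order in a pair is not a result. The lowest value of a detected gene here was 2.66 RPKM for Sp2, and the highest of a neighbour was 0.411 RPKM for Sp7. How often a detected gene has an undetected one beside it was not counted over all genes. Sp5 also lies on chromosome 2, at 2459 kb from Sp3 with 22 rows between. The Sp1, Sp2 and Sp3 pairs lie on the chromosomes of Hox clusters, the nearest Hox gene being 485, 585 and 1393 kb away.

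**Figure D2:**
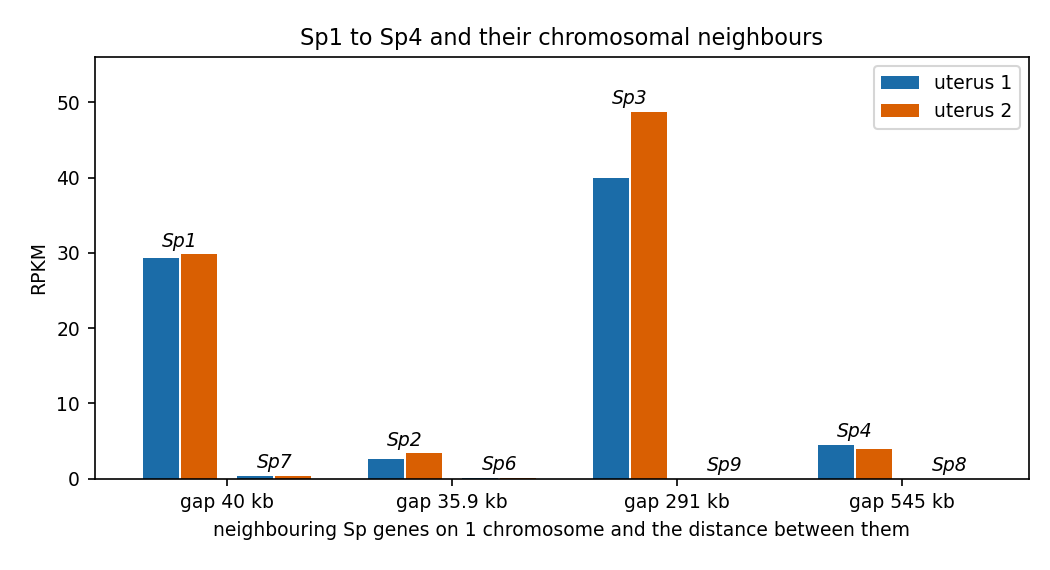
RPKM (linear axis from 0) of Sp1 to Sp4 and of the Sp gene next to each on the chromosome, in uterus 1 (blue) and uterus 2 (orange), with the distance between the genes below. Sp7 and Sp6 stay at or under 0.411 RPKM, and Sp9 and Sp8 are listed at 0.

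Of the 4 Egr genes, Egr1 and Egr2 were detected. Egr1 (NM_007913), the immediate early gene that LIF induces in the uterus, was at 5.60 RPKM in the first uterus and 4.36 in the second, a mean of 4.98 ± 0.880 RPKM (SD, n = 2) on 66 and 57 reads. Egr2, known from hindbrain and Schwann cells, lay at 1.67 and 1.19 RPKM on 19 and 15 reads. Both were lower in uterus 2, by less than their counting error. Egr3, known from muscle spindles, and Egr4, known from male germ cells, were listed at 0, which allows up to 0.553 and 0.366 RPKM in uterus 1.

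Other immediate early genes were read in the same libraries. Of 10 such genes 8 were detected, against 58.4% of all genes, with summed levels of 141 and 146 RPKM, among them Btg2 at 29.4 and 30.1 RPKM and Jun at 28.3 and 30.6 RPKM. Fos lay at 3.86 and 7.30 RPKM and Nr4a1, in the other direction, at 1.69 and 0.854 RPKM. Fosb and Nr4a1 were those not detected. The exact test described with the differences called none of the 10, against 4.51% of all genes tested. Fos had an adjusted p of 0.0605 in that exact binomial test. Handling of the tissue is known to move such genes, and its part in these levels was not tested.

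Wt1 followed Sp3 and Klf9 in level. Wt1 (NM_144783, chromosome 2, 104966686 to 105013771, plus strand), known from kidney, gonad, mesothelium and uterine stroma, was at 38.2 RPKM in the first uterus and 35 in the second, a mean of 36.6 ± 2.30 RPKM (SD, n = 2) on 453 and 460 reads. Its level was above that of 92.1% of all genes and below Klf9 in both uteri. Of 5 mesothelial markers 4 were detected at low levels, with sums of 13.1 and 15.1 RPKM, and Krt14 was listed at 0. Stromal markers were far higher, Hand2 being the lowest of 6 at 33.3 and 39.5 RPKM. The part of either cell type in the Wt1 level was not tested.

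The order of the 21 detected members was only partly resolved. Of 20 pairs of neighbours in the order of means, the values of the 2 uteri overlapped in 12. Sp3 and Klf9 overlapped, Klf9 being highest in uterus 1 and Sp3 in uterus 2. From Klf9 through Wt1, Sp1 and Klf6 to Klf3, each gene was above the one that follows in both uteri. From Klf3 through Klf10, Klf13, Klf15 and Klf7 to Klf4, each gene overlapped with the one that follows, and Klf4 was above Klf2 without overlap.

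The 2 uteri were then compared gene by gene, to see how far the members differ between animals. Of the 21 members whose mean reached 1 RPKM, 10 were higher in uterus 2, against 50.1% of all such genes, and 11 were lower. None was 2-fold apart or more, against 2.6% of all genes with that mean. The median log2 ratio (uterus 2 over uterus 1, after adding 0.1 RPKM, which understates differences of low genes) was -0.05, beside 0.001 over all genes. Its median size without sign was 0.21 for the members and 0.17 for all genes.

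Sp3 was the single member called different between the libraries. A 2-sided exact binomial test on the recovered reads, with Benjamini-Hochberg adjustment over 15099 genes, called 1 of 23 members tested and 4.51% of all genes tested (2.09% higher in uterus 2). Sp3 held 678 and 918 reads, and its level in uterus 2 was 1.22 times that in uterus 1 (exact 95% counting interval 1.10 to 1.35), with an adjusted p of 0.0042 in the exact binomial test. The recovered length of Sp3 was not within 5% of an annotated transcript, so these are the smallest read counts that its values allow. An antisense row, 1700011J10Rik, overlaps the first 1015 bases of the Sp3 gene and lay at 2.73 and 5.12 RPKM on 12 and 25 reads, which did not differ past the threshold (unadjusted p 0.072 in the exact binomial test). The use of strand in counting is not given in the sources used here, so reads of the shared bases cannot be told apart. The test compares 2 libraries, not conditions, and covers counting error only.

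Klf10 and Klf13 also had an unadjusted p under 0.05 in the same exact test, which with Sp3 makes 3 of 23 members against 15.2% of all genes tested, and failed the adjustment. Klf10 was 1.27 times as high in uterus 2 (interval 1.03 to 1.57, adjusted p 0.23 in the exact binomial test). This rests on 154 and 217 reads, set by the annotated length of Klf10, and the smallest whole reads its values allow gave an adjusted p of 0.842 in the same test. Klf13 was 0.843 times as high in uterus 2 (interval 0.728 to 0.975, adjusted p 0.198 in the exact binomial test). For the least covered detected member, Egr2, the interval of the ratio ran from 0.336 to 1.48. For Sp1, with the most reads, it ran from 0.930 to 1.12.

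**Figure D3:**
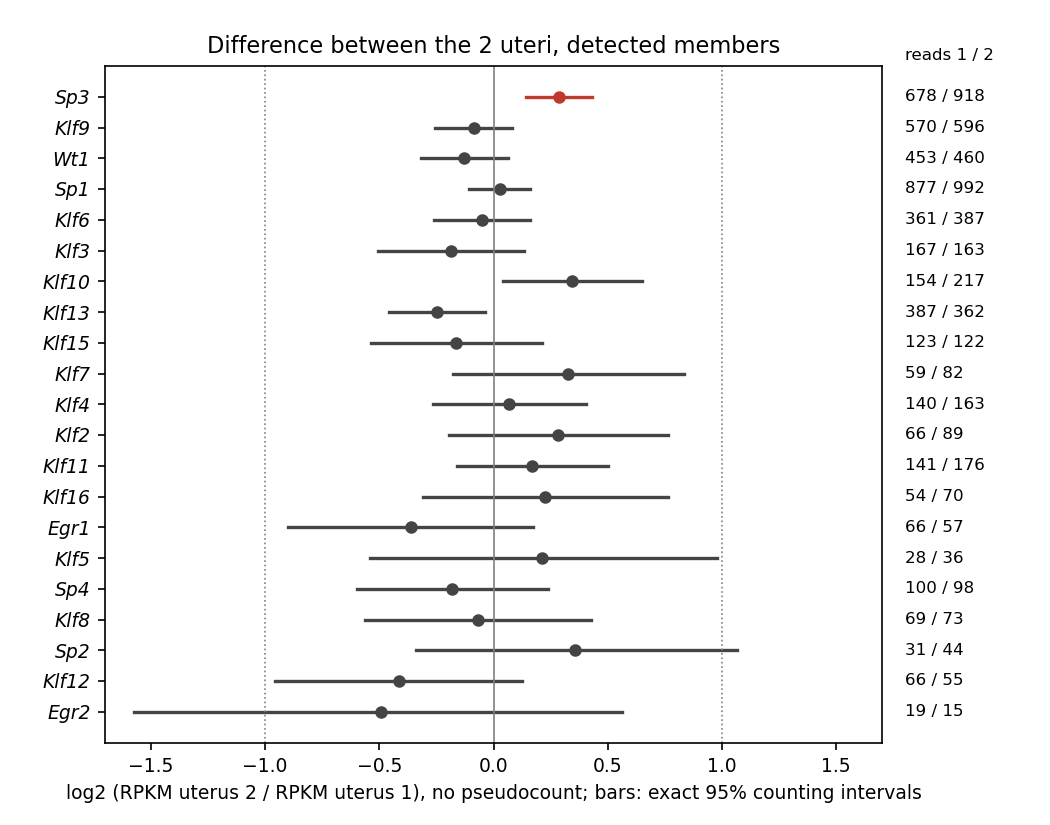
Log2 ratio of RPKM in uterus 2 over uterus 1 for the 21 detected members, without pseudocount, with exact 95% counting intervals as bars, reads in both libraries at the right and 2-fold lines dotted. Sp3 (red) is the member called after adjustment, and intervals widen from Sp1 (877 and 992 reads) to Egr2 (19 and 15 reads).

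The sizes of these differences were set beside those of all genes of like level. Between 20 and 50 RPKM the 5 members had a median size of 0.09 on the log2 scale, beside 0.12 for 2668 genes. Between 10 and 20 RPKM the 7 members had 0.25, beside 0.15 for 3447 genes, and the largest of them, Klf10 at 0.34, was below the value that 95% of those genes do not exceed (0.47). Between 2 and 5 RPKM both medians were 0.28 (6 members and 2330 genes).

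RNA of the proteins that act with these factors was present throughout. All 17 cofactors were detected, against 58.4% of all genes. The same exact test called 1 of them different between the libraries, a share near the 4.51% of all genes tested, and none was 2-fold apart, against 2.6%. Ctbp1, the corepressor of the Klf3 class, lay at 72.4 and 63.3 RPKM, and Sin3a, that of the Klf9 class, at 19.6 and 17.5 RPKM. Further high cofactors were the histone deacetylases Hdac2 at 64.3 and 70.1 RPKM, Hdac3 at 40.1 and 36.0 RPKM and Hdac1 at 34.5 and 36.8 RPKM. The called cofactor was Hcfc1, a chromatin adaptor that binds Sp1, at 28.8 and 19.2 RPKM (adjusted p 5.09e-13 in the exact binomial test). Hcfc1 was lower in the uterus in which Sp3 was higher, and a link between the 2 differences was not tested. Sp1 itself was not called (adjusted p 0.952 in the exact binomial test).

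The 12 genes that induce Egr genes or restrain Egr proteins were also all detected, and the same exact test called none of them, against 4.51% of all genes tested. The kinases Mapk3 and Map2k2 lay at 50.6 and 47.1 RPKM and at 33.3 and 27.2 RPKM, and serum response factor (Srf) at 30.5 and 29.0 RPKM. Nab1 and Nab2, corepressors of Egr proteins, lay at 19.8 and 21.6 RPKM and at 15.4 and 12.4 RPKM. Each of these RNAs was above Egr1 in both uteri. The 5 Wt1 partners ran from 6.49 RPKM (Cited2) to 19.0 RPKM (Wtap), with Basp1 at 17.4, Pawr at 15.9 and Wtip at 10.4 RPKM, and none was called.

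All 7 genes of hormone and LIF signalling were detected, against 58.4% of all genes, and the exact test called 1 of them, against 4.51% of all genes tested. The receptor subunit Il6st lay at 179 and 178 RPKM, the oestrogen receptor Esr1 at 107 and 99.2 RPKM, and the transducer Stat3 at 64.4 and 66.3 RPKM. Pgr, the progesterone receptor and partner of Klf9, lay at 77.5 and 66.4 RPKM and was called lower in uterus 2 (adjusted p 8.48e-05 in the exact binomial test). Klf9 was not called (adjusted p 0.742 in the exact binomial test) on fewer reads, and the difference between these 2 ratios was not tested. Lif lay at 3.16 and 3.90 RPKM. Of 5 reported target genes 4 were detected, and none was called by the exact test, where 58.4% of all genes were detected and 4.51% of those tested were called. Thbd and S1pr1, known targets of Klf2, lay at 39.2 and 41.2 RPKM and at 16.9 and 18.8 RPKM. Nos3, another, lay at 7.40 and 5.47 RPKM, and Nab2, given above, is a reported target of Egr1. Ptgs2 was below 1 RPKM, at 0.378 and 0.170 RPKM on 6 and 3 reads.

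Promoter letters were described last, over windows from 250 bases before to 50 bases after the deposited start, read from NCBIM37 for 22666 genes. A GC box (GGGCGG, either strand) was found in 15 of the 21 detected members and in 2 of the 10 others, Klf17 and Sp9. Over all genes the share was 63.3% of detected and 22.9% of undetected genes, so the members' shares were close to the background. Klf3 held the most GC boxes (6), followed by Klf16 and Sp4 (5 each). Detected members without one were Klf5, Klf8, Klf9, Klf12, Egr1 and Egr2. The CACCC box (CCACCC, either strand, matches may share bases with a GC box) was found in 8 of the 21 detected and 7 of the 10 other members, against 36.4% of detected and 28.1% of undetected genes. The Egr site GCGTGGGCG was in no member's window and in 0.869% of all. A CArG box was found in 2 members, Egr1 with 2 and Egr2 with 1, against 1.46% of all promoters. A match is a description of letters, not of binding.

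CpG content split the undetected members. The ratio of observed to expected CpG (the CpG count times the window length, over the product of the C and G counts) had a median of 0.844 in the detected members and 0.391 in the others, beside 0.758 and 0.238 over all detected and undetected genes. Of the detected members, Klf12 alone lay below 0.6, at 0.426. Among the undetected, Sp8, Klf1, Sp6, Sp7, Klf17 and Sp5 ran from 0.157 to 0.403, whereas Egr4, Sp9, Egr3 and Klf14 ran from 0.785 to 0.899, a range that detected members share. Klf15 had the highest ratio of all members at 1.18.

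**Figure D4:**
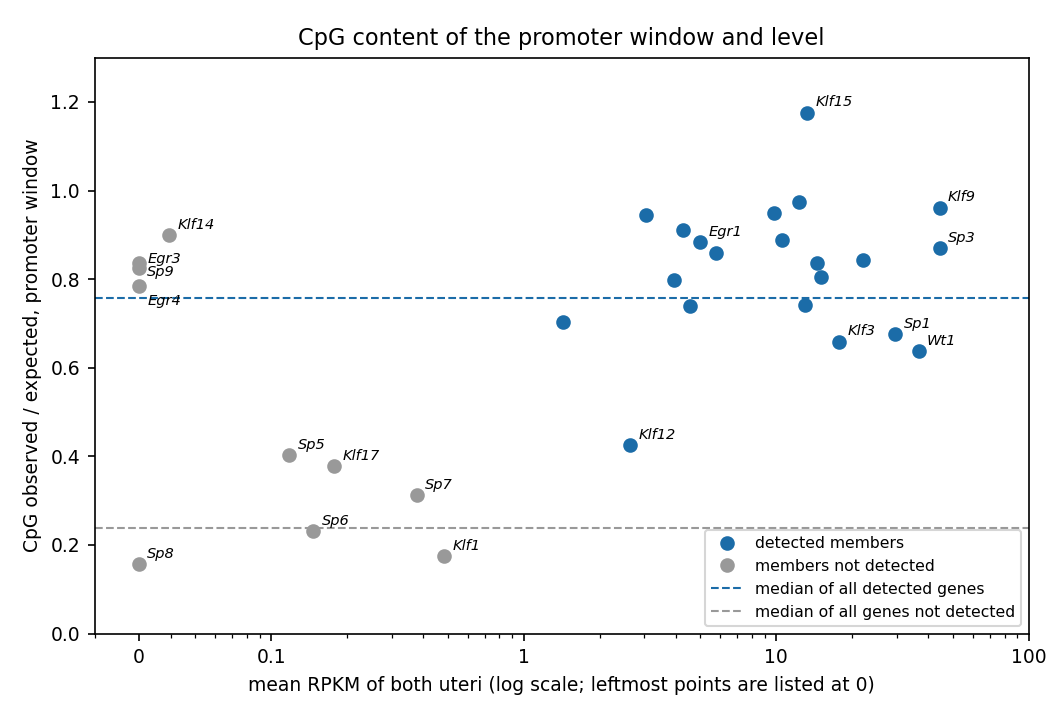
Observed to expected CpG ratio of the promoter window (linear axis) against mean RPKM (log scale, leftmost points listed at 0) for the 31 members, detected ones in blue and the others in grey, with the medians of all detected and undetected genes as dashed lines. Of the undetected members, 6 lie at 0.403 or below, and Klf14, Egr3, Sp9 and Egr4 lie at 0.785 or above.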

How the data were processed

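RNA was extracted from whole uterus with TRIzol, poly-A purified and made into libraries with a TruSeq kit for HiSeq2500 sequencing, per the labels' protocols and design text. The authors deposited RPKM values per gene, and TopHat, edgeR and build mm9 are named in the submitters' processing notes without their role. The counter, annotation release and strand setting are not given in the sources used here. Both deposited tables hold identical RPKM values for all 22740 genes of the main table.

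Whole reads were recovered from the RPKM steps. The value of 1 read came from hairpin rows of known length (scaling totals 3834174 and 4256101), and for 100% of 17426 genes above 0 both values then gave whole reads on a whole length (tolerance 1e-06 bases). A factor common to both libraries was set where the length came within 5% of the annotated one in GENCODE M1, and otherwise the smallest reads were kept. Of 16221 genes with an annotated length, 70.2% came within 5%. Recovery and test were checked on simulated data. Differences between the libraries were tested with a two-sided exact binomial test on genes with at least 6 reads in sum, Benjamini-Hochberg adjusted (scipy 1.17.1). A count of 0 was taken to allow 3 reads. PCR copies are not independent molecules, so intervals and limits hold for counting error alone. SDs are over 2 animals.

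Every member was named; of the related lists, the 4 highest genes and any called, with further ones chosen after their values were seen. Some genes of these lists are not reported here. Members and lists were chosen with earlier results of these data known. Protein sequences were not used here, so the planned comparison of zinc fingers was not made. Promoter sequences to print were chosen after levels were seen. Coordinates are 1-based on NCBIM37 (mm9), the deposited starts having been taken as 0-based. Alternatives were the detection threshold, pseudocount, TPM scale, centring, filters, read recovery, totals and each library alone.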

Additional observations from a re-analysis of the deposited data

Results flagged for a closer look

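The microRNA hairpin row Mir1192 (NR_035423, chromosome 19, 23223921 to 23224041) lies inside Klf9 on the same strand and is outside the main table. It held 4 reads in uterus 1 and 6 reads in uterus 2 (8.62 and 11.7 RPKM). Reads of Klf9 RNA over the same bases cannot be told apart from reads of the hairpin, and their part was not tested.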

How the results depend on the processing

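The count of 21 detected members stayed between 20 (2 RPKM in both) and 22 (TPM scale), and each library alone gave 21. Without a filter on low values 1 member, Klf17, was 2-fold apart, on 4 reads and 1 read, and the other alternatives run gave 0. The share of all genes 2-fold apart without that filter was not taken, so this count has no background beside it. Sp3 remained the member called under all 4 alternatives of the exact binomial test, with adjusted p from 0.00371 to 0.00484. Little could change for Sp3, since its reads were already the smallest possible. The filters on reads alter only which genes enter the adjustment. The alternatives therefore say little about the stability of this call. Over all genes the alternative tests called 581 (smallest possible reads) to 704 (at least 20 reads), against 681. With the smallest possible reads the adjusted p of Klf10 in the exact binomial test went from 0.23 to 0.842, on fewer reads by construction. Log2 ratios of the 21 members stayed within their counting intervals under all 4 alternatives. The TPM scale moved the level of 26 members by more than 1 SD, as a change of unit. A mean of 2 libraries lies within 1 SD of either by construction, which says nothing about stability. No paired analysis was possible because the labels hold a single group. Depth limits the members below 1 RPKM, which held at most 4 reads in either library, so their ratios and order cannot be read.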

Other observations

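Klf5 and Klf12 are also neighbours, 557 kb apart on chromosome 14 on opposite strands with no other row of the table between them, and here both genes were detected, at 4.23 and 4.90 RPKM for Klf5 and at 3.0 and 2.25 RPKM for Klf12. The antisense row D030028A08Rik shares 11723 bases of genome with Sp2 and lay at 5.73 and 4.50 RPKM on 62 and 54 reads, above the 31 and 44 reads of Sp2 itself. The row E030018B13Rik lies within Klf13 on the other strand, at 2.06 and 2.31 RPKM on 8 and 10 reads.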
